A study of Mus musculus with 3 samples.

Results

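The nuclei described here are endothelial-like nuclei of the mouse abdominal aorta with a high level of Pkhd1l1. They number 574 of the 30730 nuclei kept from 3 single-nucleus RNA sequencing libraries. A nucleus was a member when it held at least 3 unique molecular identifiers (UMIs, each standing for 1 captured RNA molecule) of Pkhd1l1 and at least 5 of them per 10000 UMIs. It also needed at least 1 UMI over the endothelial genes Pecam1, Cdh5, Ptprb, Flt1 and Cyyr1, and at most 1 distinct gene of the lymphatic set Prox1, Flt4, Reln and Mmrn1. The comparison group, called other endothelial nuclei, held 4718 nuclei with at least 3 UMIs and 5 per 10000 over at least 2 of the 5 endothelial genes, that were not members and passed the same lymphatic limit. Nuclei with 2 or more of the lymphatic genes (104) were kept apart as lymphatic nuclei.

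All animals were ApoE-/- mice of the C57Bl/6 strain on a high fat diet for 20 weeks. Loss of apolipoprotein E slows the clearance of lipoprotein remnants and leads to atherosclerosis, so the controls carry that lesion-prone background too. The groups were mice kept in room air, mice given cigarette smoke without an abdominal aortic aneurysm, and mice given smoke with an aneurysm. The exposure to room air or smoke lasted 20 weeks in every group. Each group was 1 library (the room air, smoke and aneurysm libraries), and the sources used here give neither the number nor the age of the animals. With 1 library per group no test between groups was possible, and every interval below is a 95% interval that covers counting error only.

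Endothelial cells line every vessel, form its barrier, and set vascular tone by releasing nitric oxide and other mediators. Pkhd1l1 encodes fibrocystin-L, a very large membrane protein related to the fibrocystin that is mutated in polycystic kidney disease, and it is best known as a coat protein of sensory hair bundles in the inner ear. Aortic endothelium is not uniform, and branch points, the inner curve, the vessels within the wall and lymphatic vessels each have their own expression programs.

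The libraries held 13189, 14859 and 7348 barcodes, of which 11022, 14001 and 5707 were kept. The aneurysm library was the shallowest. Median depth in other endothelial nuclei was 6222 UMIs in room air, 8498 in smoke and 2155 in the aneurysm library. In the members it was closer, at 5869, 6856 and 5298. Between 26 and 46 barcodes were shared by a pair of libraries, and 5 members lay among them.

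Before the endothelial and lymphatic conditions, 183, 390 and 51 nuclei were high for Pkhd1l1. The endothelial condition removed 5, 0 and 2 of them. The lymphatic condition removed 4, 22 and 17, a larger share in the aneurysm library. That left 174 members in room air, 368 in smoke and 32 in the aneurysm library. Of the 574, 572 also met the stricter endothelial definition of the comparison group, and 502 held no lymphatic gene at all. At the edge of the rule, 74 members held exactly 3 Pkhd1l1 UMIs, while 336 other endothelial nuclei held 2 and 557 held 1. Another 309 held 3 or more but stayed under 5 per 10000. Pkhd1l1 therefore ran down through the endothelial nuclei without a gap at the rule's threshold.

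The endothelial label held against markers that the rule did not use. Tek, the angiopoietin receptor Tie2, stood at 915 CPM (UMIs of the gene per 1000000 UMIs of those nuclei) in the members and 665 CPM in other endothelial nuclei of room air, at 794 and 589 CPM in smoke, and at 580.2 and 577 CPM in the aneurysm library. Nos3, the endothelial nitric oxide synthase, was at 286, 338 and 344 CPM in the members of the 3 libraries. In all nuclei outside the endothelial and lymphatic sets it was at 2.64, 2.55 and 19.1 CPM. Vwf, the von Willebrand factor gene, was at 764, 708 and 811 CPM in members against 49.5, 47.0 and 27.1 CPM in those remaining nuclei. The full list of 28 pan-endothelial genes, which holds Tek, Nos3 and Vwf, summed to 12121, 11790 and 12456 CPM in members. It summed to 10336.5, 10360 and 13164 CPM in other endothelial nuclei and 759, 672 and 1691 CPM in the remaining nuclei. Of that list Kdr and Plvap were lower in members than in other endothelial nuclei of room air and smoke. Markers of other linings were near 0: of the mesothelial markers 8 of 9 had no UMI in room air members, and of the epithelial markers 6 of 7. Lyve1, a hyaluronan receptor of lymphatic vessels that the rule did not use, had 0, 5 and 1 UMIs in the members of the 3 libraries and 56.1, 74.7 and 70.6 CPM in lymphatic nuclei. All 7 lymphatic markers outside the rule summed to 186, 213 and 400.5 CPM in the members and 126, 127 and 165 CPM in other endothelial nuclei. In lymphatic nuclei they summed to 518, 1183 and 2036 CPM.

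Pkhd1l1 itself chose the members, so its level is given as a description. Members held a median of 5 UMIs in room air, 7 in smoke and 6.5 in the aneurysm library, and summed to 1061, 1106 and 1181 CPM. Other endothelial nuclei summed to 69.7, 71.6 and 47.7 CPM, and the remaining nuclei to 3.61, 3.57 and 10.0 CPM. Lymphatic nuclei had 206, 644 and 1671 CPM, so in the aneurysm library they exceeded the members. Over all nuclei the level was 39.3 CPM (37.8 to 40.8) in room air, 46.1 (44.9 to 47.4) in smoke and 48.0 (44.3 to 52.0) in the aneurysm library, but its sources differed. Members gave 51.9% of all Pkhd1l1 UMIs in room air and 61.5% in smoke, and 37.6% in the aneurysm library. Lymphatic nuclei gave 1.64%, 5.81% and 23.2%.

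Members made up a larger part of the endothelium in the smoke library and a smaller part in the aneurysm library. They were 9.11% of endothelial nuclei in room air (174 of 1910, exact Clopper-Pearson interval 7.86 to 10.5), 15.3% in smoke (368 of 2406, 13.9 to 16.8) and 3.28% in the aneurysm library (32 of 976, 2.25 to 4.60). The smoke share was 1.68 times the room air share (exact conditional interval 1.40 to 2.02). The aneurysm share was 0.214 of the smoke share (0.144 to 0.308) and 0.360 of the room air share (0.239 to 0.527). Other endothelial nuclei differed less, at 15.8%, 14.6% and 16.5% of all nuclei, while members were 1.58%, 2.63% and 0.561%. Nuclei were purified with anti-nucleus beads, a step that can itself set the share of a cell type.

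Depth enters these shares, because a shallow nucleus is less likely to show 3 UMIs of a gene. Every nucleus was therefore also thinned to 2000 UMIs, with shallower ones left out. At that depth the limit of 3 UMIs asks for more than 5 per 10000, and at 1000 UMIs for more still. At 2000 UMIs the rule gave 4.35% (66 of 1516), 7.17% (142 of 1980) and 2.05% (10 of 487) of endothelial nuclei. The smoke to room air ratio was then 1.65 (1.22 to 2.24) and the aneurysm to smoke ratio 0.286 (0.134 to 0.542). The aneurysm to room air ratio was 0.472 (0.216 to 0.923). At 1000 UMIs all 3 ratios included 1 in their intervals, at 1.44 (0.836 to 2.54), 0.583 (0.249 to 1.22) and 0.840 (0.340 to 1.90), with 9 aneurysm members left. A rule with no threshold gave the same order: at 2000 UMIs, 20.2% of endothelial nuclei in room air, 25.3% in smoke and 57 of 518 in the aneurysm library held any Pkhd1l1 UMI, against 0.588%, 0.606% and 0.645% of the remaining nuclei at that same depth.

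**Figure D1:**
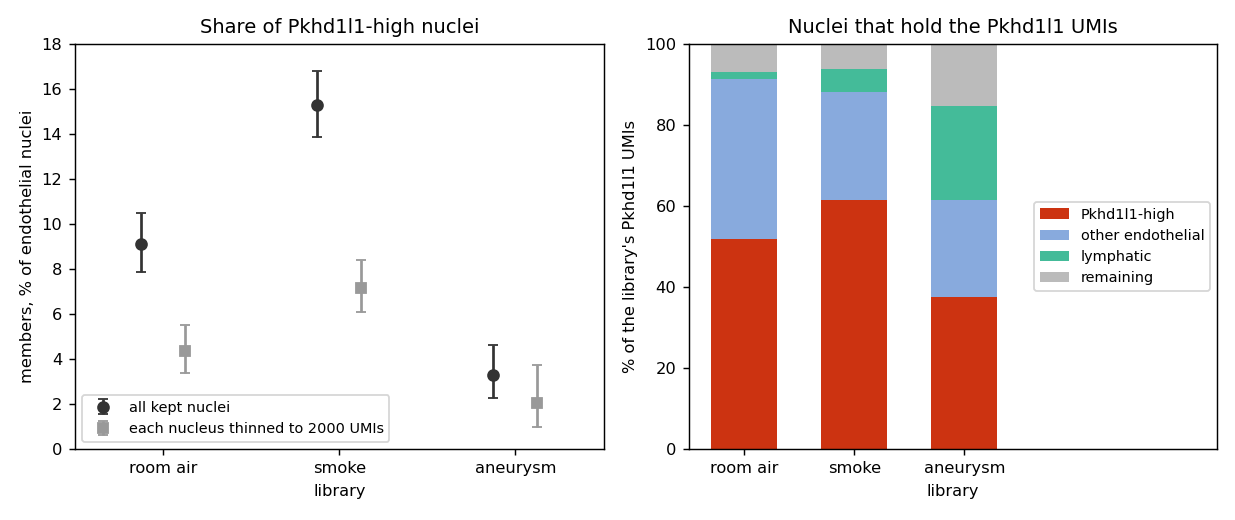
Share of Pkhd1l1-high nuclei among endothelial nuclei (percent, vertical axis) in each of the 3 libraries; points are shares and bars exact 95% binomial intervals, for all kept nuclei and for nuclei thinned to 2000 UMIs. The smoke library is highest (15.3%) and the aneurysm library lowest (3.28%), and the order is the same after thinning.

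The members were next compared with other endothelial nuclei of the same library, gene by gene. A gene was counted as higher or lower when the bound of its CPM ratio nearest to 1 was at least 1.5-fold from 1 in both the room air and the smoke library. The rule drew the members from this contrast, so the counts and ratios are a description without a test. Of 13611 genes measured in both libraries, 122 (0.896%) were higher in the members and 168 (1.23%) were lower, 290 (2.13%) in all. In single libraries 1.37% of measured genes were higher and 2.21% lower in room air, and 1.94% and 4.1% in smoke. Among genes measured in both, the 122 made up 65.6% of those higher in room air and 47.8% of those higher in smoke, and the 168 made up 55.4% and 28.3% of the lower ones.

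Chrm3, Chrm2 and Adra2a encode receptors for neurotransmitters. Chrm3, the muscarinic M3 acetylcholine receptor through which acetylcholine makes endothelium release nitric oxide, was at 1172 CPM in room air members against 426 CPM in other endothelial nuclei. It was at 1466 against 448 CPM in smoke, and at 452 against 161 CPM in the aneurysm library. The ratios were 2.75 (2.60 to 2.91), 3.27 (3.16 to 3.39) and 2.81 (2.21 to 3.53), so Chrm3 was higher in the members of every library. Chrm2, the M2 receptor of the same family, lay the other way. It had 21 UMIs in room air members, 3.61-fold lower (2.34 to 5.86) than the 57.7 CPM of other endothelial nuclei, and at 9.10 against 59.5 CPM in smoke, 6.54-fold lower (4.47 to 9.96). In the aneurysm library 5 UMIs gave 25.7 against 34.0 CPM, with an interval that included no difference. Adra2a, the alpha-2A adrenergic receptor, was at 27.4 against 4.14 CPM in room air and 31.7 against 5.20 CPM in smoke, which is 6.62-fold (4.27 to 10.1) and 6.09-fold (4.55 to 8.13) higher. It had no UMI in the aneurysm members.

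Basement membrane genes went in opposite directions within 1 family. Collagen IV is built from chains that pair in fixed sets: the alpha-1 and alpha-2 chains in most basement membranes, and the alpha-3 and alpha-4 chains, together with alpha-5, in a few such as that of the kidney glomerulus. Col4a3 was at 57.2 CPM in the members and 5.52 CPM in other endothelial nuclei of room air, and at 61.7 and 11.4 CPM in smoke, a ratio of 10.4 (7.48 to 14.3) and 5.40 (4.42 to 6.60). Col4a4 was at 73.2 and 7.36 CPM, and at 60.3 and 12.7 CPM, a ratio of 9.94 (7.49 to 13.2) and 4.74 (3.89 to 5.76). Col4a2 was lower in the members, at 167 against 288 CPM in room air and 145 against 263 CPM in smoke, 1.73-fold (1.51 to 1.99) and 1.82-fold (1.65 to 2.01). Of 18 basement membrane genes measured, 2 were counted as higher (Col4a3 and Col4a4) and 3 as lower (Col4a2, Col18a1 and Lamb1). The list's median log2 ratio was -0.44 in room air and -0.41 in smoke, beside -0.06 and -0.09 over all measured genes. Col4a3 was found in 14.4% of room air and 19.3% of smoke members, and Col4a4 in 20.7% of room air members. In the aneurysm members Col4a3 had 1 UMI and Col4a4 had 0, of 194772 UMIs in all.

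Col4a3 and Col4a4 lie head to head on mouse chromosome 1 and are transcribed away from each other (Col4a4 at chr1:82448423-82586849 on the minus strand, Col4a3 at chr1:82586921-82722059 on the plus strand, GENCODE M21 annotation of GRCm38). The 71 bases between their starts are the shared upstream stretch of the pair that was high together, and are shown for that reason. They are taken from the RefSeq promoter table, span chr1:82586850-82586920 and read 5′ to 3′ on the plus strand.
Col4a4 to Col4a3: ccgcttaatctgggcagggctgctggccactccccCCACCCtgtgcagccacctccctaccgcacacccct
Capitals mark the 1 match found to the motif CCACCC, searched on both strands (CCACCC and GGGTGG), a core to which Krüppel-like factors are known to bind. The stretch is 69.0% G and C, and 10.5% of 32851 promoters hold the same motif in the 71 bases before their start. A match is a description of the letters and says nothing of a factor's binding.

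Guidance genes steer axons and growing vessels. Unc5d, a member of the netrin receptor family, was at 89.9 against 11.2 CPM in room air and 111 against 21.1 CPM in smoke, which is 8.05-fold (6.31 to 10.2) and 5.25-fold (4.53 to 6.08) higher. Its UMIs came from few nuclei, 8.05% of room air and 12.2% of smoke members. Slit2, a secreted ligand of Robo receptors, was at 184 against 679 CPM in room air, 90.0 against 538 CPM in smoke and 154 against 433 CPM in the aneurysm library. Slit2 was 3.70-fold (3.25 to 4.22), 5.98-fold (5.30 to 6.78) and 2.81-fold (1.96 to 4.18) lower in the members, so the difference had 1 direction in all 3 libraries. Of 21 measured genes of the guidance list, which does not hold Unc5d, 0 were counted as higher and 3 as lower (Slit2, Slit3 and Robo2). Slit3 was also abundant outside the endothelium, with 628 CPM in the remaining nuclei of room air and 630 CPM in those of smoke, and the part of such RNA in its difference was not tested.

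Several of the leading higher genes encode transporters, channels and enzymes of small molecules. Slc4a4, a sodium bicarbonate cotransporter, was at 422 against 129 CPM in room air and 478 against 158 CPM in smoke, 3.27-fold (2.97 to 3.60) and 3.02-fold (2.84 to 3.22) higher. Clic5, a chloride intracellular channel protein, was at 40.4 against 7.76 CPM and 80.5 against 19.5 CPM. In the aneurysm library the direction was the reverse: no UMI in the members against 40.5 CPM in other endothelial nuclei. Adh7 and Adh1 are alcohol dehydrogenases that can oxidise retinol. Adh7 was at 77.7 against 16.3 CPM and 90.7 against 22.2 CPM, and Adh1 at 38.9 against 5.59 CPM and 28.0 against 7.73 CPM. Ugt8a, the galactosyltransferase that makes galactosylceramide, was at 57.2 against 13.7 CPM and 55.6 against 12.6 CPM. Of 16 channel genes on the fixed list, Kcnn3, a calcium-activated potassium channel, was the 1 counted as higher, at 83.8 against 42.3 CPM in room air and 147 against 57.2 CPM in smoke. Piezo2, Kcnma1, Cacna1c and Ryr2 were counted as lower. Cacna1c, an L-type calcium channel subunit, had 339.6 and 379 CPM in the remaining nuclei, above its level in either endothelial set.

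Stxbp6 and Lrrc3b were the most widely detected of the other leading genes. Stxbp6 encodes amisyn, a regulator of vesicle fusion, and was found in 77.6% of room air and 76.6% of smoke members. Its level was 855 against 188 CPM and 829 against 224 CPM, 4.55-fold (4.24 to 4.88) and 3.69-fold (3.51 to 3.88) higher. Lrrc3b, a membrane protein with leucine-rich repeats, was at 381 against 94.3 CPM and 492 against 116 CPM. It was nearly absent outside the endothelium, at 1.32 and 0.810 CPM in the remaining nuclei. Shisa9, an auxiliary protein of glutamate receptors, was at 390.2 against 68.5 CPM and 444 against 114 CPM. Ppl, the cytoskeletal linker periplakin, Eya2, a transcriptional coactivator with phosphatase activity, and Stk32b, a serine/threonine kinase, completed the 16 named higher genes, each between 3.12-fold and 7.22-fold higher in either library.

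The genes lowest in the members were led by Ccdc85a, a coiled-coil protein, with 1 UMI in room air members (0.762 CPM) against 23.5 CPM in other endothelial nuclei, and 3 UMIs in smoke members (1.01 CPM) against 45.5 CPM. The ratios, 30.8-fold (5.49 to 1220) and 45.0-fold (15.4 to 219) lower, rest on those few UMIs. Ablim3, an actin-binding LIM protein, had no UMI in room air members against 6.64 CPM, and 1.69 against 22.8 CPM in smoke. Adamts9 and Vcan were both lower; the first encodes a secreted protease that can cleave versican and the second encodes versican, a large proteoglycan of the vessel wall. Adamts9 was at 9.14 against 55.8 CPM in room air, 11.8 against 88.2 CPM in smoke and 87.3 against 299 CPM in the aneurysm library. Vcan was at 26.7 against 125 CPM, 21.6 against 80.8 CPM and 30.8 against 55.9 CPM. Sele encodes E-selectin, an adhesion molecule that activated endothelium shows to leukocytes. It was at 6.10 against 29.7 CPM in room air and 6.74 against 61.3 CPM in smoke, 4.87-fold (2.45 to 11.4) and 9.09-fold (5.86 to 14.9) lower. Mctp1, Kif26b and Tc2n, which encode a calcium-binding membrane protein, a kinesin and a protein with C2 domains, were between 2.89-fold and 4.00-fold lower in room air and smoke.

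**Figure D2:**
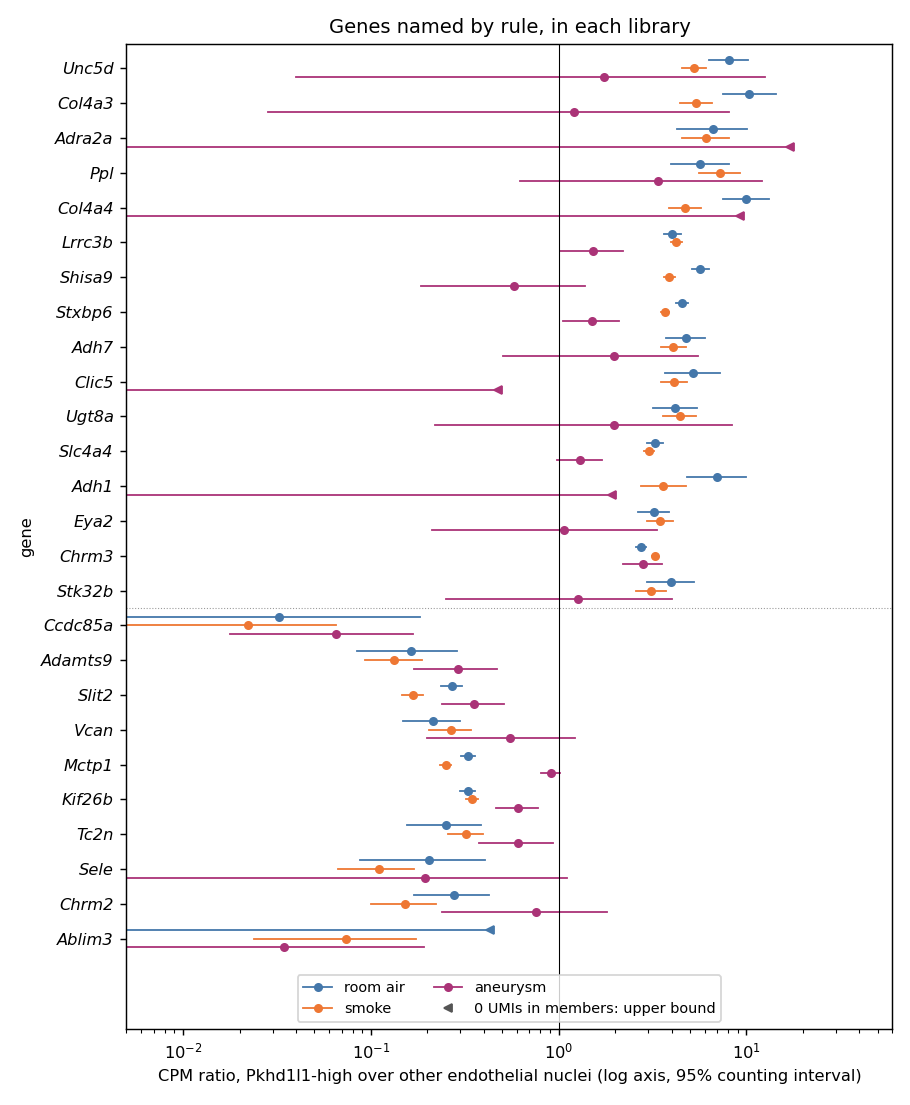
CPM in members over CPM in other endothelial nuclei (horizontal axis, log scale) for the 16 named higher and 10 named lower genes, 1 point per library with its exact 95% interval. For Lrrc3b, Shisa9, Stxbp6, Slc4a4 and Clic5 the aneurysm interval lies wholly below the room air and smoke points, while for Chrm3 it overlaps them.

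Lists of endothelial identity were compared next. Of 28 pan-endothelial genes measured, 0 were counted as higher and 2 as lower: Kdr, the main receptor for VEGF-A, and Plvap, which forms the diaphragms of fenestrae. Kdr was at 6.10 against 21.8 CPM in room air, 10.4 against 41.0 CPM in smoke and 20.5 against 105 CPM in the aneurysm library. The list's median log2 ratio was 0.18 in room air and 0.10 in smoke. Of 18 arterial genes none was counted in either direction, and the medians were -0.05 and -0.15. Bmp6, a bone morphogenetic protein of large-vessel endothelium, was at 6023 against 5624 CPM in room air and 6040 against 4553 CPM in smoke. Of the 6 capillary genes measured, Fabp4, a fatty acid binding protein of microvessels and adipocytes, was counted as lower, at 12.2 against 33.7 CPM in room air and 16.2 against 63.0 CPM in smoke. The capillary median was -0.95 over 6 genes in room air and -1.12 over 8 in smoke, and the 12 capillary genes of the list summed to 93.7 against 191 CPM, 135 against 321 CPM and, in the aneurysm library, 77.0 against 920.4 CPM. Of 4 venous genes measured in both libraries none was counted in either direction in both, and the medians were -0.60 over 4 genes in room air and -0.66 over 5 in smoke. The venous sums were 324 against 441 CPM, 303 against 499.7 CPM and 257 against 599.7 CPM. In the remaining nuclei of the 3 libraries the capillary list summed to 905, 954 and 1777 CPM. The venous list summed there to 510, 480 and 423 CPM. The part of RNA from other cells in the capillary and venous differences was not tested. In the VEGF and angiopoietin list of 11 measured genes, Angpt1, the activating ligand of Tie2, was the 1 higher gene, at 104 against 36.2 CPM in room air and 184 against 47.3 CPM in smoke.

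Functional lists are given by their counts, beside the 0.896% higher and 1.23% lower over all genes. At those shares a list of this size would hold few or no such genes. No gene was counted in either direction among 11 shear-responsive, 19 BMP and TGF-beta, 11 mesenchymal-transition or 8 polycystin and cilium genes. Activation genes had Sele alone as lower of 14 measured, scavenger receptors Scarb1 and Lrp1 of 10, junction genes Pcdh17 of 14 and Notch genes Notch3 of 15. These 4 lists had 0 higher genes. Notch3 was also on the list of pericyte markers. Scavenger genes summed to 1297 and 1348 CPM in the remaining nuclei of room air and smoke, against 404 and 546 CPM in other endothelial nuclei. The part of RNA from other cells in these differences was not tested. For activation genes the medians were -0.28 in room air and -0.41 in smoke. Vcam1, an adhesion molecule of the same list, was at 236 against 228 CPM in room air and 242 against 314 CPM in smoke.

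RNA of macrophages was present in these nuclei and moved with the comparison. The 12 macrophage markers summed to 693 CPM in room air members and 923 CPM in other endothelial nuclei, and to 857 and 1452 CPM in smoke, while the remaining nuclei summed to 4804 and 5422 CPM. In room air and smoke every one of the 12 had a UMI in the members. In the aneurysm library the sums were 267 and 436 CPM, and Lyz2 and Fcgr1 were at 0 in the members. At least 3 macrophage markers were found in 43.1% of room air, 49.2% of smoke and 3.13% of aneurysm members, and in 45.1%, 60.2% and 7.31% of other endothelial nuclei. Without nuclei holding 3 markers of another class, 70 genes were higher and 87 lower in the members, in place of 122 and 168. The part of that RNA in each gene's difference was not tested.

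The 16 higher and 10 lower genes also graded with Pkhd1l1 among nuclei that the rule left out. In room air the 16 genes together were at 860 CPM (843 to 879) in other endothelial nuclei without a Pkhd1l1 UMI, 1474 CPM with 1 UMI and 1721 CPM with 2. In the members they were at 2934 CPM where Pkhd1l1 was 5 to under 10 per 10000, 5056 CPM at 10 to under 20, and 6869 CPM (6317 to 7456) at 20 or more. Smoke ran the same course, from 912 to 6541 CPM. The 10 lower genes fell away along the same axis, from 3816 to 614 CPM in room air and from 3327 to 309 CPM in smoke. These genes were chosen on the same nuclei, so the gradient is a description. Other endothelial nuclei with 3 or more Pkhd1l1 UMIs but under 5 per 10000 were the deepest, with medians of 15248 and 13755 UMIs, and stood off the gradient with 1133 and 1694 CPM of the 16 genes.

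In the aneurysm library the same sums were taken. The 16 and 10 genes were chosen on room air and smoke alone, a choice that by itself favours larger differences in those libraries than in the aneurysm library, here and in the counts per nucleus below. Its other endothelial nuclei without a Pkhd1l1 UMI had 698 CPM of the 16 genes. Its members had 1027 CPM (839 to 1244) of the 16 genes at 5 to under 10 Pkhd1l1 UMIs per 10000, 1278 CPM (1039 to 1556) at 10 to under 20, and 2304 CPM (1622 to 3176) at 20 or more, from 13, 11 and 8 nuclei. The 10 lower genes were at 2034, 2698 and 2179 CPM in these members, against 3923 CPM without a Pkhd1l1 UMI. The log2 ratio of the 16-gene sum between members and other endothelial nuclei was 1.91 in room air, 1.85 in smoke and 0.64 in the aneurysm library. Lymphatic nuclei of the aneurysm library had 4012 CPM (3598 to 4462) of the 16 genes, above its members. Most of it was Chrm3 at 1953 CPM and Stxbp6 at 1741 CPM, so these genes were not particular to the members there.

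**Figure D3:**
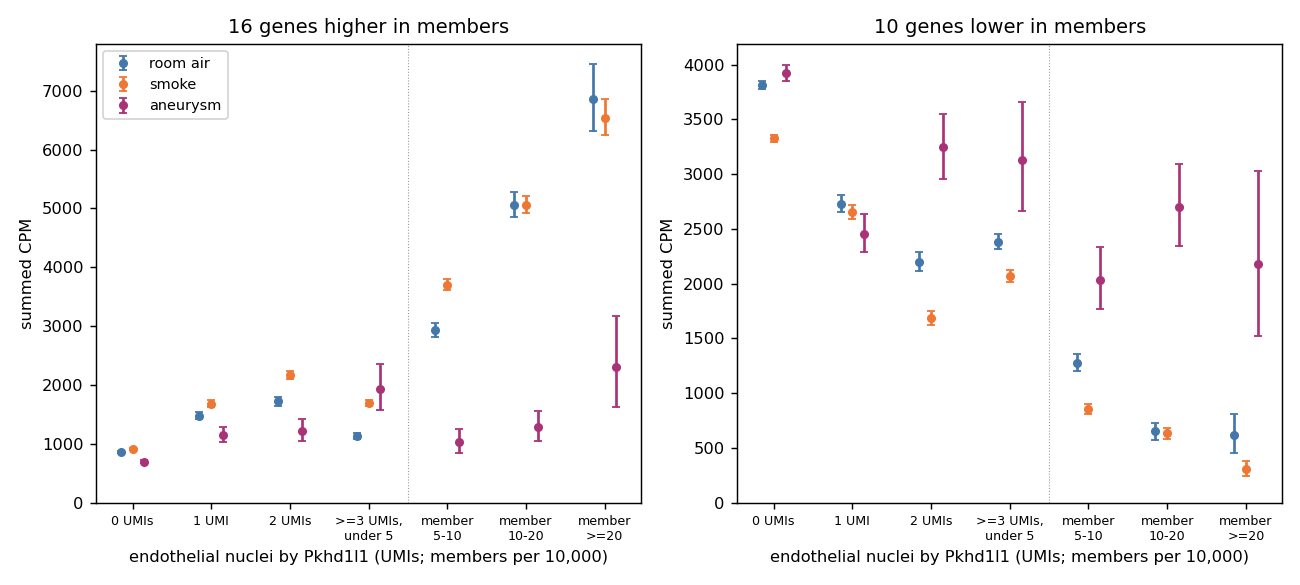
Summed CPM of the 16 named higher genes and of the 10 named lower genes (vertical axes) in endothelial nuclei ordered by their Pkhd1l1 level, 1 colour per library, with points for sums and bars for exact 95% Poisson intervals. Room air and smoke points run from 860 and 912 CPM up to 6869 and 6541 CPM for the higher genes, while the highest aneurysm point is at 2304 CPM.

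Counted nucleus by nucleus, 30 of 174 room air members (17.2%) and 99 of 368 smoke members (26.9%) held at least 8 of the 16 genes. None of the 32 aneurysm members did, which allows a share of up to 9.38% (3 counts). The median was 5, 6 and 2 genes. Thinned to 2000 UMIs, which left out 6, 4 and 5 members, at least 4 of the 16 genes were found in 45.8% of room air members (38.1 to 53.7), 55.5% of smoke members (50.2 to 60.7) and 0 of 27 aneurysm members (exact upper bound 12.8%). In other endothelial nuclei at that depth the shares were 7.31%, 8.28% and 1.63%. In lymphatic nuclei they were 0 of 16, 2 of 54 and, in the aneurysm library, 4 of 18 (22.2%, 6.41 to 47.6).

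The wider sets of genes were also read in the aneurysm library. Of the 122 higher genes, 99 were measured in the aneurysm library, 69 of these had a ratio above 1 there, and 15 passed the 1.5-fold bound. Of all genes measured in that library 42.5% had a ratio above 1 and 1.35% passed. Of the 168 lower genes, 158 were measured, 130 had a ratio below 1 and 45 passed, beside 51.3% and 1.91% of all genes. Gene by gene, Lrrc3b was at 159 against 105 CPM in the aneurysm library (ratio 1.52, 1.01 to 2.196), Slc4a4 at 308 against 236 CPM (1.30, 0.984 to 1.70) and Shisa9 at 25.7 against 44.4 CPM, from 31, 60 and 5 UMIs in the members. For Adra2a, Ppl, Col4a3, Col4a4, Unc5d and Ugt8a, each with 0 to 3 UMIs in the 32 nuclei, the aneurysm interval reached the ratio seen in smoke. A difference of the size seen in smoke was therefore not excluded for these genes at this depth. For Lrrc3b, Shisa9, Stxbp6, Slc4a4 and Clic5 the interval lay wholly below the smoke ratio.

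Smoke and room air were then compared within the members, which the rule did not use. Of 10424 genes measured in the members of both libraries, 199 (1.91%) were higher in smoke with a bound of at least 1.5-fold and 54 (0.518%) were lower. In other endothelial nuclei 658 of 15829 (4.16%) were higher and 76 (0.480%) were lower. Of the 199, 86 were also higher in other endothelial nuclei, and of the 54, 24 were also lower there. The median log2 ratio over all measured genes was 0.07 in members and 0.12 in other endothelial nuclei. Between these libraries smoke cannot be told apart from any other difference between the 2 preparations. One such difference was mitochondrial RNA, whose median share of UMIs was 1.67% in room air members and 0.589% in smoke members, and 1.62% and 0.598% in other endothelial nuclei. Of the 54 lower genes, 13 were mitochondrial, with ratios from 0.341 to 0.567. The part of this difference in the other counts was not tested.

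Marker lists of other cell types and of vessel types were compared in the same way, beside the 1.91% higher and 0.518% lower over all measured genes. Of 9 fibroblast markers measured, Pdgfra, Col1a1 and Abca8a were counted as higher, with a median log2 ratio of 1.41 in members and 0.63 in other endothelial nuclei, and the list summed to 139 CPM in room air members and 285 CPM in smoke members. Of 10 macrophage markers Dock2 and Lyz2 were counted as higher, with a median of 0.48 in members and 0.65 in other endothelial nuclei, and sums of 693 and 857 CPM in room air and smoke members. Of 7 MHC class II genes H2-Ab1 was counted, with medians of 1.10 and 1.17. Of 3 endocardial markers Cytl1 and Adgrg6 were counted, and of 2 adipocyte markers both were, Pparg and Acsl1. No smooth muscle, pericyte or T and NK cell marker was counted, of 7, 3 and 5 measured. Among vessel types, Nr2f2 was counted as higher of 4 venous, Meox2 of 4 capillary and Nts of 4 lymphatic markers outside the rule. These lists had medians of 0.20, 0.66 and 0.52 in members and 0.78, 0.90 and -0.10 in other endothelial nuclei. Several of these calls rest on very few UMIs in room air members. From room air to smoke members, Nr2f2 went from 4 to 66 UMIs, Meox2 from 0 to 22 and Nts from 0 to 25. Pdgfra went from 2 to 56, Abca8a from 2 to 27 and H2-Ab1 from 4 to 47. How many of these UMIs lay in 1 nucleus is not given here. No pan-endothelial or arterial marker was counted in members, of 28 and 17 measured. Without nuclei holding 3 markers of another class, 104 genes were higher in smoke members in place of 199. The part of RNA from other cells in each gene's difference was not tested.

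Cytl1, a small secreted protein, was at 99.1 CPM in room air members, 280.4 CPM in smoke members and 25.7 CPM in aneurysm members. It was 2.83-fold higher in smoke (2.35 to 3.43), and 2.66-fold higher (2.45 to 2.89) in other endothelial nuclei, where it went from 47.4 to 126 CPM. Cytl1 was also among the 122 genes higher in members. Hspb1, a small heat shock protein, was at 6.86 CPM in room air, 42.1 CPM in smoke and 25.7 CPM in the aneurysm members. Its smoke ratio was 6.14 (3.13 to 13.7), with 4.13 (3.45 to 4.96) in other endothelial nuclei. Cst3, the protease inhibitor cystatin C, was at 25.9 and 87.3 CPM, a ratio of 3.37 (2.35 to 4.97), with 2.96 (2.59 to 3.40) in other endothelial nuclei. Per2, a repressor of the circadian clock, was at 11.4 and 45.8 CPM, a ratio of 4.01 (2.35 to 7.36). No source used here gives the time of day at which tissue was taken.

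Anks1b, a scaffold protein, was at 3.05 CPM in room air members (4 UMIs) and 23.6 CPM in smoke members (70 UMIs), a ratio of 7.74 (2.89 to 29.2). In other endothelial nuclei it was at 4.01 and 3.43 CPM, and its interval there included no difference. The difference between these ratios was not tested. Camk4, a calcium and calmodulin dependent kinase, was at 48.8 and 148 CPM, a ratio of 3.03 (2.32 to 4.00), with 2.08 (1.86 to 2.33) in other endothelial nuclei. In aneurysm members it was at 324 CPM, from 63 UMIs of which 35 lay in 1 nucleus.

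Among the genes lower in smoke, Adam12, a membrane protease, was at 220.2 CPM in room air members and 64.4 CPM in smoke members, 3.42-fold lower (2.84 to 4.13). In other endothelial nuclei it was 1.51-fold lower (1.44 to 1.57). The aneurysm value of 734 CPM rested on 143 UMIs with 133 in 1 nucleus. Frmd5, a FERM domain protein, was at 4351 CPM in room air, 2179 CPM in smoke and 3815 CPM in aneurysm members, 2.00-fold lower in smoke (1.93 to 2.07) and 1.51-fold lower (1.49 to 1.53) in other endothelial nuclei. Grk5, a kinase of G protein coupled receptors, was at 1068 and 587 CPM, 1.82-fold lower (1.70 to 1.95). Ugcg, the enzyme that makes glucosylceramide, was at 214 and 93.4 CPM, 2.29-fold lower (1.94 to 2.72). Armcx4 and Mtcl1 were 2.66-fold and 2.46-fold lower. All 6 named lower genes were also lower in other endothelial nuclei, by 1.40-fold to 1.89-fold.

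**Figure D4:**
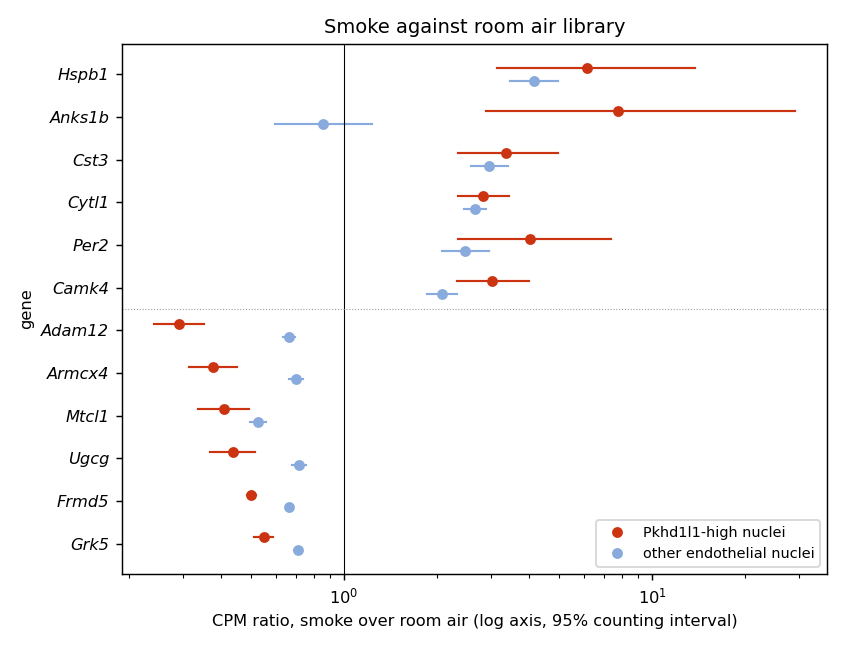
CPM in the smoke library over CPM in the room air library (horizontal axis, log scale) for the 12 named genes, in members and in other endothelial nuclei, with exact 95% intervals. The Anks1b interval lies above 1 in the members and includes 1 in other endothelial nuclei, while the 6 lower genes lie below 1 in both.

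Some of the genes that marked the members also differed between these libraries. Chrm3 was 1.25-fold higher in smoke members (1.18 to 1.33) and Stxbp6 differed by less than its interval, at 855 and 829 CPM. Clic5 was 1.99-fold higher (1.48 to 2.74), and 2.52-fold higher (2.05 to 3.12) in other endothelial nuclei. Slit2 was 2.04-fold lower (1.71 to 2.44), beside 1.26-fold (1.23 to 1.30) in other endothelial nuclei.

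Of 12 measured genes on a list of handling and stress genes, 4 were counted as higher in smoke members and 0 as lower. The 4 were the immediate early genes Fos, Fosb, Jun and Egr1. In other endothelial nuclei 6 of 13 were counted as higher (Junb, Egr1, Atf3, Dusp1, Ier2 and Ier3), so Egr1 alone was counted in both. The list's median log2 ratio was 0.53 in members and 0.66 in other endothelial nuclei. Fos was at 125 CPM in room air members, 226 CPM in smoke members and 369.7 CPM in aneurysm members. Egr1 was at 215, 384 and 569.9 CPM. Klf2, a transcription factor raised by laminar flow and also an early response gene, was at 125, 301 and 390.2 CPM, 2.41-fold higher in smoke (2.04 to 2.86) and 2.14-fold (2.02 to 2.26) in other endothelial nuclei.

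Lists tied to smoke chemistry were too short to read against the 1.91% higher over all genes. Of 3 measured targets of the aryl hydrocarbon receptor none was counted in either direction, with a median of 0.09, and Cyp1b1 was at 55.6 CPM in room air members and 77.2 CPM in smoke members. Of 7 measured targets of the oxidant sensor NRF2, Slc7a11, a cystine transporter, was counted as higher, from 4 to 58 UMIs with 30 of these in 1 nucleus, and the median was 0.05. Of 12 activation genes none was counted, with a median of 0.04 in members and 0.41 in other endothelial nuclei. The difference between these medians was not tested.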

How the data were processed

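Single-nucleus RNA was measured in 3 libraries. The authors deposited raw UMI counts per gene and barcode for 33696 features, not normalised. Per the file headers cellranger 8.0.1 wrote them, but the mm10 build, STAR and Cell Ranger 2.2.0 stand in the submitters' processing notes, and the conflict was not resolved. No source used here states intron counting or strand, so overlapping genes cannot be told apart. Gene positions are those of the GRCm38 reference.

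Barcodes with at least 500 UMIs, 300 genes and under 5% mitochondrial UMIs were kept. No doublet caller was run. An alternative left out nuclei with 3 or more markers of another class. UMIs were summed per group of nuclei and library and scaled to CPM with exact Poisson intervals, shares with exact Clopper-Pearson intervals and ratios with exact conditional binomial intervals (95%), using numpy 2.4.6 and scipy 1.17.1. With 1 library per group no p-value was computed. The steps were tested on simulated data.

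A gene was measured with 20 UMIs over both groups compared. Named genes were the 16 highest and 10 lowest by the weaker bound of room air and smoke, and up to 6 per direction for smoke over room air. Each needed 30 UMIs, no nucleus with over 20% of them, and a CPM no lower than outside the endothelial sets. Of 122 higher and 168 lower genes, 87 and 40 met this. Listed genes were added by a fixed rule. The members and lists were chosen with earlier results of these data known.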

Additional observations from a re-analysis of the deposited data

Results flagged for a closer look

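Of the 199 genes higher in smoke members, 2 were lower in smoke in other endothelial nuclei, past the same 1.5-fold bound. Car3, a carbonic anhydrase abundant in adipocytes, had no UMI in room air members and 25 in smoke members. That is 3.69-fold higher when the 0 is set at a floor of 3 counts over the group, with an exact 95% lower bound of 2.78. In other endothelial nuclei the ratio of smoke over room air was 0.483. Tmem45b had no UMI in room air members and 22 in smoke members, 3.24-fold higher against the same floor with a lower bound of 2.42. Its ratio in other endothelial nuclei was 0.238. A single nucleus held 21 of the 25 Car3 UMIs and a single nucleus held 19 of the 22 Tmem45b UMIs. The difference between the 2 sets of nuclei was not tested.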

How the results depend on the processing

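No paired analysis was possible because each group is 1 library and its number pairs nothing. For the shares and the counts of genes, 75 of 105 values under an alternative stayed close to the reported one and 30 moved. As a percentage of all nuclei in room air, smoke and the aneurysm library, members were 0.535, 1.24 and 0.245 under a stricter Pkhd1l1 gate (5 UMIs and 10 per 10000). They were 2.85, 3.95 and 0.964 under a looser one (2 UMIs and 3 per 10000), and 0.220, 0.306 and 0.224 when thinned to 1000 UMIs. Thinned to 2000 UMIs they were 0.808 in room air and 1.21 in smoke. With no lymphatic gene allowed smoke had 2.29, and without nuclei holding 3 markers of another class room air had 0.926 and smoke 1.32. The smoke to room air ratio of endothelial shares was 2.33 under the stricter gate, and the aneurysm to smoke ratio 0.583 at 1000 UMIs. Genes higher and lower in members numbered 70 and 87 without nuclei holding other markers and 50 and 47 at a fold of 2. The lower ones numbered 107 where other endothelial nuclei needed 3 of the 5 endothelial genes and 263 where they held no Pkhd1l1 UMI. Genes higher in smoke members numbered 123 under the stricter and 313 under the looser gate, 104 without nuclei holding other markers, 101 with 100 UMIs for a measured gene, 69 at a fold of 2 and 39 after thinning to 2000 UMIs. Those lower numbered 13 and 27 under the last 2 settings.

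No named gene changed direction in 882 values, but 157 of them moved by more than the counting interval, as did 14 of 42 for the 16-gene ratio. Without the mitochondrial limit the room air log2 ratio went from -2.23 to -1.54 for Vcan and from -1.54 to -3.24 for Ablim3. Of 899 values of list medians, 9 changed sign from a reported median that lay more than 0.25 from 0. Changes of sign from a median nearer 0 were not counted. Without nuclei holding other markers, members over other endothelial nuclei gave 0.27 and 0.012 for macrophage markers in room air and smoke, 0.10 for Notch genes in room air and -0.14 for interferon genes in smoke. Nuclei weighted alike gave 0.069 for Notch genes in room air. In smoke over room air within members, capillary genes gave -0.029 with nuclei weighted alike, macrophage markers -0.26 and mesenchymal-transition genes -0.059 after thinning, and the latter -0.17 under the stricter gate. The cause was not tested, except that thinning and stricter gates leave fewer UMIs. The 16-gene log2 ratio in the aneurysm library ran from 0.64 to 1.14, the highest without the 5% of nuclei with the most UMIs. Depth limits the 32 aneurysm members most: a gene with no UMI there could stand at up to 15.4 CPM (3 counts).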

Other observations

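The genes named in this closing part were chosen after their values were seen. Several encode enzymes that oxidise or hydrolyse small lipids and foreign compounds, and no list of such enzymes was counted. Fmo1, a flavin-containing monooxygenase, was at 64.0 CPM in members and 18.6 CPM in other endothelial nuclei of room air, and at 146 and 44.6 CPM in smoke, a ratio of 3.44 (2.66 to 4.40) and 3.26 (2.90 to 3.67). In the aneurysm library it was 35.9 and 86.2 CPM, the opposite order. Fmo5 was at 53.3 and 19.5 CPM in room air and 57.0 and 23.7 CPM in smoke. Cyp4b1, a cytochrome P450, was at 75.4 and 29.0 CPM, and 106 and 43.3 CPM. Ephx2, the soluble epoxide hydrolase that removes vasodilator epoxides of arachidonic acid, was higher in the members of each library, at 229 and 118 CPM in room air, 224 and 117 CPM in smoke and 226 and 89.2 CPM in the aneurysm library. Ptgs1, the constitutive cyclooxygenase, was at 43.4 and 13.3 CPM in room air and 54.6 and 19.7 CPM in smoke.

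Nr3c2, the mineralocorticoid receptor, was at 536 and 217 CPM in room air and 726 and 311 CPM in smoke, and at 364 and 325 CPM in the aneurysm library. Vipr1 and Vipr2, both receptors of vasoactive intestinal peptide, were 2.75-fold (1.98 to 3.78) and 3.72-fold (2.56 to 5.36) higher in smoke, and 3.01-fold and 3.72-fold higher in room air. Ackr3, a scavenging receptor of the chemokine Cxcl12, was at 80.8 and 28.5 CPM in room air, 128 and 46.7 CPM in smoke and 216 and 67.9 CPM in the aneurysm library.

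A few genes had high values in the aneurysm members. The plan was to name no gene from a library with under 50 members, so these stand outside the named genes. Pak5, a p21-activated kinase, was at 298 CPM in them and 33.0 CPM in other endothelial nuclei of that library, from 58 UMIs with 21 in 1 nucleus, while room air and smoke members had 19.1 and 31.0 CPM. Cpe, carboxypeptidase E, was at 914 and 308 CPM, a ratio of 2.97 (2.52 to 3.49), and was found in 90.6% of the 32 nuclei. Sfrp1, a secreted Wnt antagonist, was at 503 and 154 CPM, and in room air and smoke it was slightly lower in the members than in other endothelial nuclei. Cmah was at 513 CPM in aneurysm members, but 89 of its 100 UMIs lay in 1 nucleus, and lymphatic nuclei of that library had 5330 CPM. The lymphatic levels of Pak5, Cpe and Sfrp1 are not given here, and whether these genes were particular to the members was not tested.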
